A study of Mus musculus with 18 samples.

Results

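The performance difference in 2 brain tissues was set side by side: for each gene, the difference between high and low performers in the tissue labelled MDTH minus the same difference in the prefrontal cortex (PFC). This interaction is a difference of 2 log2 differences. It is above 0 where high performers stood higher relative to low performers in MDTH than in PFC, and below 0 in the opposite case. It used 12 of the 18 libraries of the series, 3 from each of MDTH high performers, MDTH low performers, PFC high performers and PFC low performers. Of the 48440 genes in the table, 18115 had a mean of at least 10 normalized counts over these 12 libraries and were tested. The study took its animals from the Diversity Outbred stock, in which each mouse carries its own mixture of founder genomes, and it asked which genes go with short-term memory. The labels call the animals high or low performing and give neither the behavioural test nor age, sex, treatment or what MDTH stands for. All groups share the stock and the values come from tissue, so each is an average over the cells of a sample, and fewer cells of a type and less RNA per cell cannot be told apart.

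The mediodorsal thalamus and the prefrontal cortex are wired to each other in both directions, and the loop between them is known for a part in working memory. Its thalamic side is built from glutamatergic relay neurons, which carry thalamic transcription factors and the vesicular glutamate transporter Slc17a6, while the cortex holds Slc17a7 neurons of several layers and many kinds of local inhibitory cells. In mice the dorsal thalamus has few inhibitory cells of its own, and it borders the habenula, a small nucleus with a distinct set of receptors and peptides.

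The tissue names were checked against markers. Slc17a6 lay between 32071 and 55025 normalized counts in MDTH and between 784 and 1267 in PFC, and Tcf7l2, Rora and Prkcd were likewise higher in every MDTH library than in any PFC library. Neurod6, a cortical factor, lay between 102 and 257 in MDTH and between 7539.5 and 9913 in PFC. The 12 libraries held 53283250 to 59634490 normalized counts. Dividing each total by the commonest low value, taken as the worth of 1 read, gave an estimate of 41156443 to 48840131 reads.

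Several features of the libraries bear on every value below. The style of the library names separates high from low performers in both tissues, so within a tissue the effect of performance and that of any separate preparation cannot be told apart, and no comparison within one style was possible. The numbers 44, 88 and 165 of the high performers and 130 of the low performers occur in the names of both tissues, and libraries that share a number deviated together from their group means (r of 0.35 to 0.51 across genes, 4 pairs). MDTH low replicate 3 and PFC low replicate 3 carry different numbers, 6 and 65, and shared the state of 95.3% of 106 genes that were either on or off within every tissue, where libraries with the same number in different tissues shared 84.9% to 95.3%. With these 2 libraries also taken as a pair, added after seeing the data, a random block gave 1160 genes and a fixed block 12, against 398 without a block. In MDTH, a list of 12 habenular markers summed to 5008, 4054 and 3390 normalized counts in high performers, against 7459, 15822 and 35863 in low performers. In PFC, 16 markers of choroid plexus, ependymal and meningeal cells summed to 156377, 4362 and 3063 in high performers, against 7869, 151338 and 86591 in low performers. The habenular sums did not overlap between the MDTH groups, while high choroid plexus sums occurred in both PFC groups. Counts without the libraries that hold most of these transcripts are given below, and their part in the result was not tested otherwise.

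**Figure D1:**
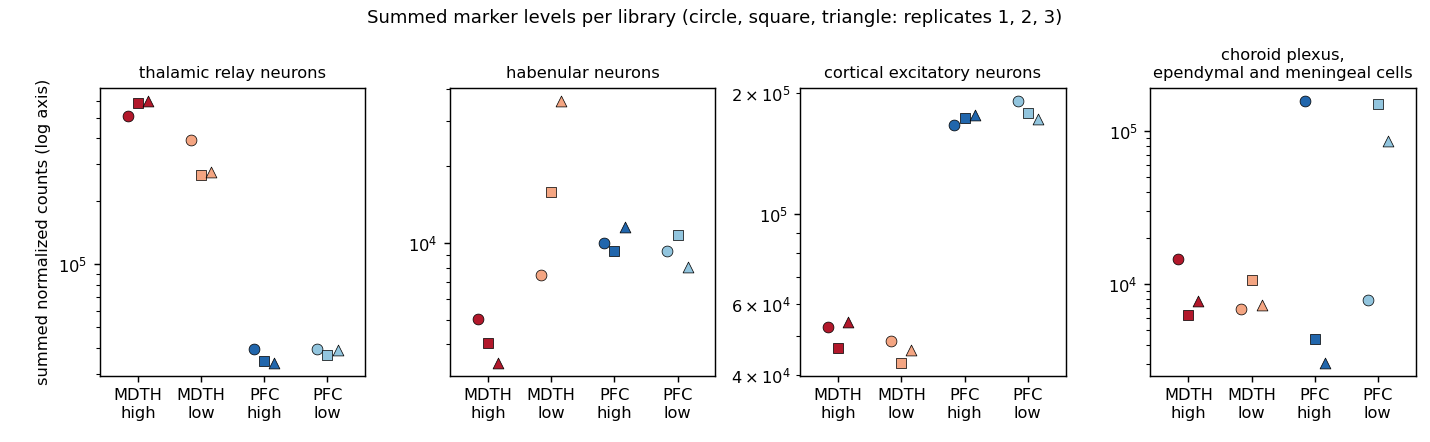
Summed normalized counts of 4 lists of cell markers in each library (logarithmic vertical axes; circles, squares and triangles are replicates 1, 2 and 3). Thalamic relay markers are higher and habenular markers lower in all 3 MDTH high libraries than in the MDTH low libraries, and choroid plexus markers are high in 1 PFC high and 2 PFC low libraries.

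The performance difference differed between the tissues for 398 of 18115 genes (2.2% of the genes tested, limma, Benjamini-Hochberg adjusted p below 0.05). The interaction was above 0 for 82 of them (0.453%) and below 0 for 316 (1.74%). Most of the 316 were genes whose level was low in the MDTH of high performers: 293 were lower in MDTH high than in MDTH low performers and did not pass in PFC, 10 were lower in MDTH and higher in PFC, 9 were higher in PFC only, and 4 were lower in both tissues. Their interaction had a median of -1.86 on the log2 scale and ran between -6.53 and -0.52, and 143 of them exceeded 4-fold. The 82 were smaller in size, with a median of 0.98 and a range of 0.42 to 5.21, and 10 exceeded 4-fold. Of these, 60 were higher in MDTH high performers and did not pass in PFC, 8 were higher in MDTH and lower in PFC, 10 were lower in PFC only, 3 were higher in both tissues and 1 was lower in both. Over all genes tested the median interaction was 0.02. These counts and ranges include genes that reached the mean of 10 through 1 group alone, for which no test is given below. Onecut3 at -6.53 and Gm10108 at 5.21 are among them, and such genes were not counted apart.

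The count moved with the libraries in the fit. Without MDTH high replicate 1, 2 or 3 it was 792, 190 and 186, and without MDTH low replicate 1, 2 or 3 it was 830, 85 and 113. Without PFC high replicate 1, 2 or 3 it was 194, 131 and 138, and without PFC low replicate 1, 2 or 3 it was 295, 215 and 92. With both MDTH low libraries of highest habenular level left out, 14 genes passed. That fit holds 1 MDTH low library, which is assumed to vary like the other groups. With the 3 PFC libraries of highest choroid plexus level left out, which leaves 1 PFC low library, 0 passed (2177 at an unadjusted p under 0.05). With the shared name number as a random replicate block the count rose to 817 and held all 398 genes, and with the number as a fixed block, which leaves 2 residual degrees of freedom, 0 passed (1417 at an unadjusted p under 0.05). Leaving out MDTH high replicate 1 or MDTH low replicate 1, which stood closest to each other in both marker sums of MDTH, raised the count, and leaving out any other library lowered it. Where a named gene lost its call with 1 library left out, the libraries are given beside it. The sign of the interaction was the same in each of these fits for every one of the 398 genes that was tested in it.

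Far more genes differed in the same direction in both tissues. High and low performers differed in 5007 genes in MDTH (27.6%, with 14% higher and 13.6% lower in high performers) and in 2111 in PFC (11.7%, with 6.36% higher and 5.29% lower), and 1528 genes passed in both. Of those, 873 were higher and 637 lower in high performers in both tissues, 8 were higher in MDTH and lower in PFC, and 10 were lower in MDTH and higher in PFC. The genes that passed in the same direction made up 71.5% of the PFC calls and 30.2% of the MDTH calls, and 8 of them had an interaction that passed. The tissue counts moved too: MDTH gave 3291 without MDTH low replicate 3, and PFC gave 1065, 1243 and 1106 without PFC high replicate 2, PFC high replicate 3 and PFC low replicate 3. The tissues share name numbers and the split in name style, so these counts are no independent repeat of one another.

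**Figure D2:**
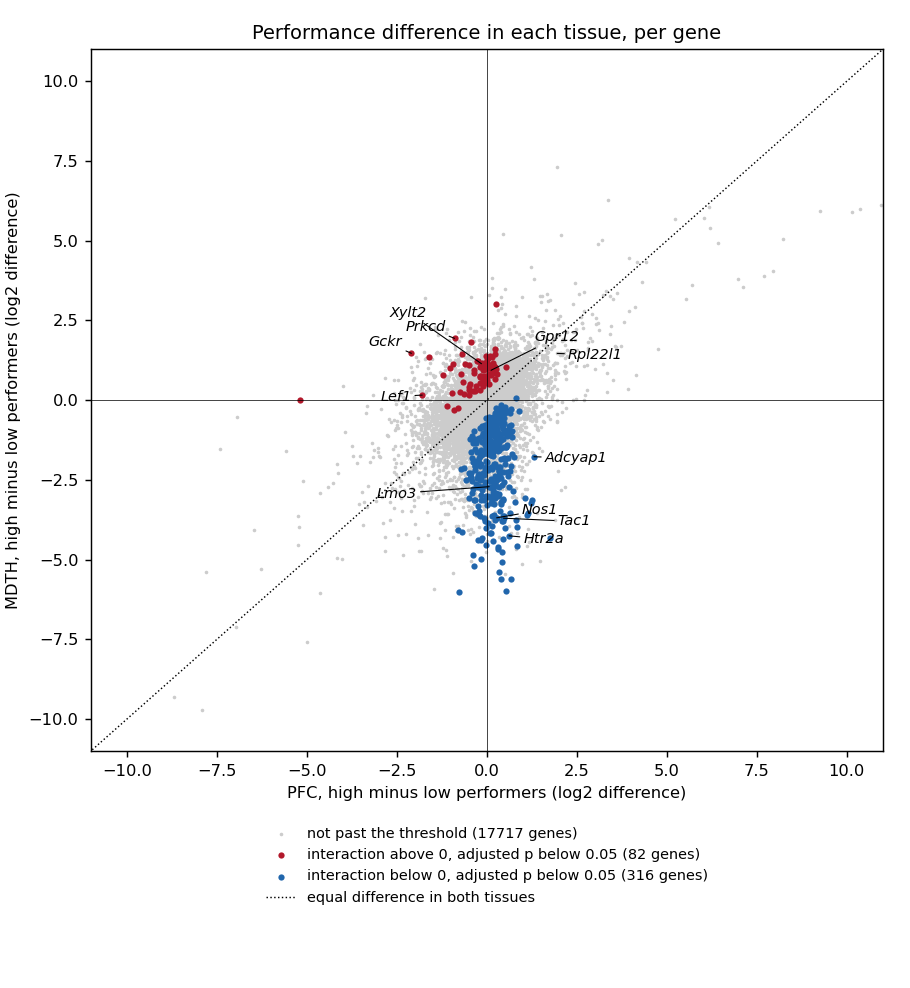
Difference between high and low performers in MDTH (vertical axis, log2) against that in PFC (horizontal axis, log2) for 18115 genes, with the 82 genes of positive and the 316 of negative interaction in colour. Most coloured genes below 0 spread far down the vertical axis in MDTH (median -1.81) while they stay near 0 in PFC (median 0.17), and the grey genes lie mostly around the dotted diagonal of equal differences.

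The smallest p belonged to Htr2a, the serotonin 2A receptor (ENSMUSG00000034997, GRCm38 chromosome 14, 74640840 to 74709494, plus strand, protein coding). Htr2a held 26.03, 19.7 and 17.02 normalized counts in MDTH high performers, against 334, 438 and 478 in MDTH low performers. In PFC it held 1429, 1281 and 1755 in high and 1120.3, 909.5 and 878 in low performers. The MDTH groups did not overlap, with a mean 19.9-fold lower in high performers (groups did not overlap in MDTH for 43.7% of all genes tested), and in PFC the high libraries lay above the low ones. The interaction was -4.87 on the log2 scale (SE 0.29, 95% interval -5.51 to -4.23, limma adjusted p = 5.1e-05).

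Htr1a, the serotonin 1A receptor, followed the same course with 20.8, 22.4 and 19.6 normalized counts in MDTH high and 357, 227 and 175 in MDTH low performers, and 1017, 1235 and 1324 in PFC high and 926, 881 and 937 in PFC low performers. Its interaction was -3.85 (SE 0.32, limma adjusted p = 0.000368). Both receptors stood higher in every PFC library than in any MDTH library. Of 30 monoamine and acetylcholine receptors tested, 4 had an interaction below 0 that passed, where 1.74% of all genes did. None had one above 0, where 0.453% of all genes did, and the list median was -0.72. The other two were Htr4, a serotonin receptor (-3.34, limma adjusted p = 0.0292), and Adra2c, an adrenergic receptor (-2.56, limma adjusted p = 0.0362). Within MDTH 3 of the 30 stood higher and 12 lower in high performers, where 14% of all genes were higher and 13.6% lower. In PFC none of the 30 passed in either direction, where 11.7% of all genes did. Htr4 missed the threshold without any 1 library other than MDTH high replicate 1 and MDTH low replicate 1 (adjusted p 0.0515 to 0.0915). Adra2c missed it without any 1 library other than MDTH high replicates 1 and 2 and MDTH low replicate 1 (adjusted p 0.0523 to 0.107). With 1 library left out, between 2 and 6 of the list passed below 0.

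Nos1, the neuronal nitric oxide synthase (ENSMUSG00000029361, GRCm38 chromosome 5, 117781032 to 117958840, plus strand, protein coding), held 313, 270.4 and 230.3 normalized counts in MDTH high and 4783, 3342 and 2655 in MDTH low performers, against 3502, 2762 and 3533 in PFC high and 2413, 2913 and 2759 in PFC low performers. The MDTH low libraries overlapped the range of the cortex, and the MDTH high mean was 13.2-fold lower than the MDTH low mean. The interaction of Nos1 was -3.96 (SE 0.28, limma adjusted p = 0.000151). Sstr2, a somatostatin receptor, gave -4.59 (SE 0.39, limma adjusted p = 0.000368), with 32.2, 28.6 and 28.5 normalized counts in MDTH high and 368, 849 and 910.1 in MDTH low performers. Reln, the secreted glycoprotein reelin, gave -4.79 (SE 0.50, limma adjusted p = 0.00171), with 157, 55.4 and 104 in MDTH high and 1648, 2063 and 2311 in MDTH low performers.

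The other genes of the 10 smallest p below 0 were of mixed function. Atp2b4, a calcium pump of the plasma membrane, held 878, 680.4 and 699 normalized counts in MDTH high and 3798, 4978 and 3804 in MDTH low performers (interaction -2.60, limma adjusted p = 0.000207). Asic4, a member of the acid-sensing channel family, held 68.9, 50.04 and 46.9 in MDTH high and 875, 549.9 and 692 in MDTH low performers (-3.46, limma adjusted p = 0.000368). Cygb, the globin cytoglobin, held 526, 479 and 427 in MDTH high and 3643, 4860.3 and 6122 in MDTH low performers (-3.07, limma adjusted p = 0.000582). In none of the 10 did the MDTH groups overlap, and PFC differences ran from -0.25 to 0.61 on the log2 scale, none past the threshold. Lancl3 and BC030500 completed the 10, with interactions of -3.56 and -3.08 (limma adjusted p = 0.000727 and 0.00128). All 10 stayed past the threshold with any 1 library left out. With MDTH low replicates 2 and 3 both left out, MDTH low is a group of 1 library whose spread is taken from the other groups, and in that fit Reln did not pass (limma adjusted p = 0.0713).

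**Figure D3:**
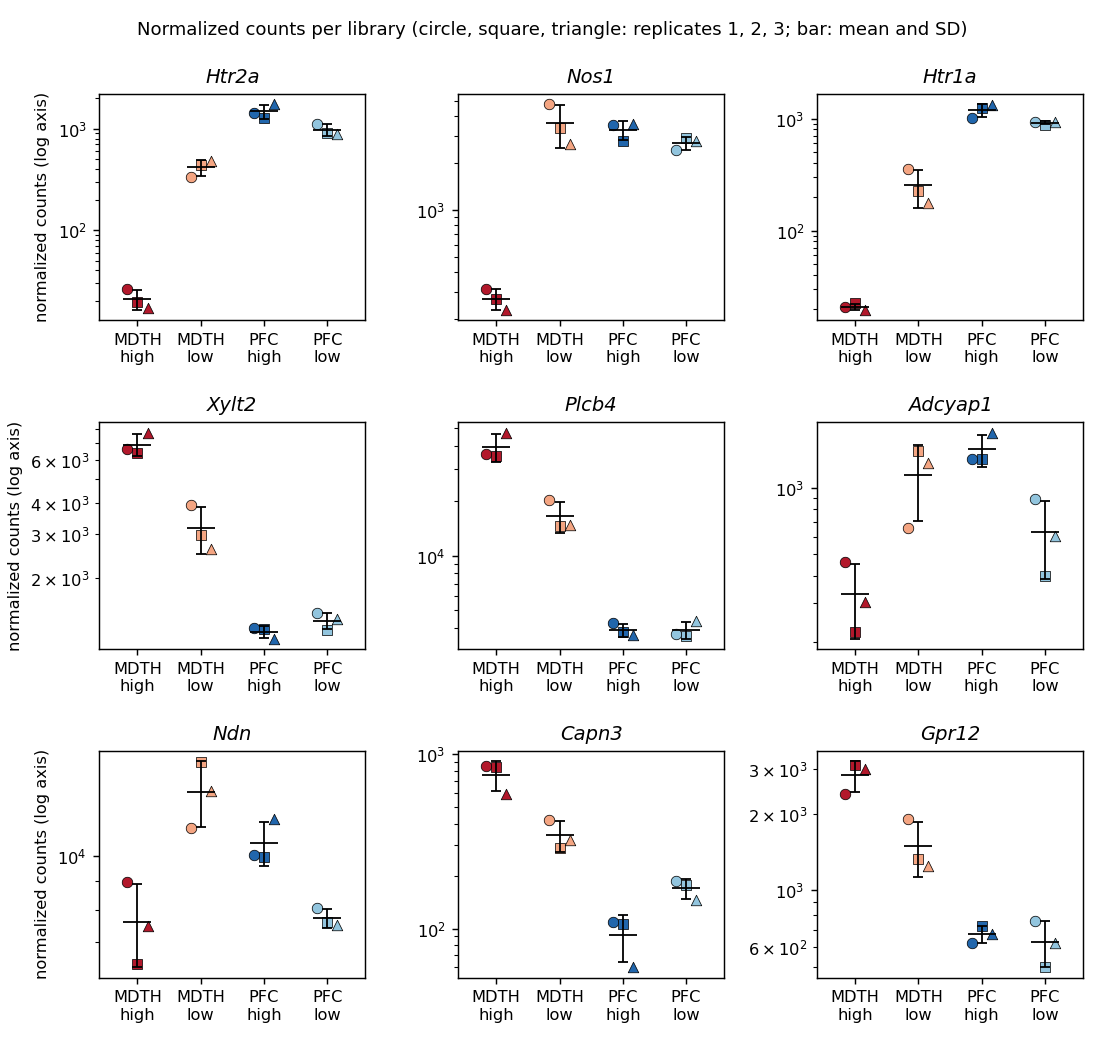
Normalized counts of 9 genes in each of the 12 libraries (logarithmic vertical axes; circles, squares and triangles are replicates 1, 2 and 3, and bars give the mean and SD of 3 libraries). Htr2a, Nos1 and Htr1a are lowest in the 3 MDTH high libraries, Xylt2, Plcb4 and Gpr12 are higher in MDTH high than in MDTH low libraries with no PFC difference that passed, and Adcyap1, Ndn and Capn3 differ in opposite directions in the 2 tissues.

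Nos1 and Reln belong to a list of inhibitory neuron genes, most of which did not pass. Beside them, markers of the reticular thalamus, zona incerta and hypothalamus, where many cells are inhibitory, summed to 1119, 1114 and 852 normalized counts in MDTH high and 2412, 2405.5 and 2018 in MDTH low performers, against 3925, 4462 and 4033 in PFC high and 7508, 4960.5 and 6268 in PFC low performers. These sums did not overlap between the groups of either tissue, and the part of these markers in the inhibitory genes was not tested. Of the 10 reticular and hypothalamic markers tested, 1 had an interaction below 0 that passed, and the median of that list was -0.15. Of 20 inhibitory neuron genes tested, 4 had an interaction below 0 that passed and 1 above 0, where 1.74% and 0.453% of all genes did. The median of the inhibitory list was -0.01. It summed to 40989, 43550 and 41995 normalized counts in MDTH high and 66031, 38906 and 35678 in MDTH low performers, which overlapped. Gad2, which makes GABA, held 536, 495 and 437 normalized counts in MDTH high and 9547, 2839 and 2457 in MDTH low performers, against 10309.5, 10465 and 11426 in PFC high and 9864, 9099 and 10138 in PFC low performers. The largest value in MDTH belonged to low replicate 1, and the groups did not overlap (interaction -3.20, SE 0.54, limma adjusted p = 0.0171). Sst, the somatostatin precursor, gave -2.98 (limma adjusted p = 0.0384), with 139, 36.98 and 162 in MDTH high and 868, 968 and 545 in MDTH low performers. Slc32a1, the vesicular GABA transporter, held 119.7, 63.2 and 107 in MDTH high and 3164, 553 and 392 in MDTH low performers and did not pass (-3.30, limma adjusted p = 0.0696). Adarb2, a member of an RNA editing enzyme family that marks some cortical interneurons, went the other way with 7199, 10843 and 9318 in MDTH high and 5454, 1641 and 1810.5 in MDTH low performers (2.27, limma adjusted p = 0.0478). Gad2 missed the threshold without PFC low replicate 3 (adjusted p 0.0503). Sst missed it without any 1 library other than MDTH high replicates 1, 2 and 3 and MDTH low replicate 1 (adjusted p 0.0619 to 0.117). Adarb2 missed it without any 1 library other than MDTH high replicate 1 and MDTH low replicate 1 (adjusted p 0.0828 to 0.128). Pvalb and Vip, which mark other classes of interneuron, had interactions of 0.58 and -0.05 that did not pass. With 1 library left out, between 2 and 6 of the 20 passed below 0.

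Tac1, the precursor of substance P, was the member of 15 striatal projection genes whose interaction passed, where 2.2% of all genes did. It held 78.5, 49.98 and 45.02 normalized counts in MDTH high and 399, 772 and 1329 in MDTH low performers, against 575, 1030.4 and 688 in PFC high and 474, 483 and 678 in PFC low performers. Its groups did not overlap in MDTH and overlapped in PFC, and the interaction was -4.17 (SE 0.56, limma adjusted p = 0.0062). Pdyn and Penk, the opioid peptide precursors, gave -5.46 and -2.14 and did not pass (limma adjusted p = 0.0534 and 0.0837). With the random block of name numbers Pdyn passed (limma adjusted p = 0.0339), and 4 of the 15 members passed below 0 in that fit. Drd1 and Drd2, dopamine receptors that define striatal projection cells, had interactions of -1.12 and -0.26 that did not pass.

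The proximal promoters of 3 neuropeptide genes and Htr2a are shown because Sst, Tac1 and Adcyap1 are among the genes with an interaction below 0 and transcription of the Sst gene is textbook ground for the cAMP response element. Each window runs from 250 bases before to 50 bases after the annotated start, from RefSeq on GRCm38.p6, and capitals mark the shorter site TGACG or its reverse complement CGTCA, or the full element TGACGTCA. The Sst window is chr16:23890795-23891094 on the minus strand, and that of Tac1 is chr6:7554811-7555110 on the plus strand. That of Adcyap1 is chr17:93198767-93199066 on the plus strand (the first of 2 annotated windows), and that of Htr2a is chr14:74640624-74640923 on the plus strand.
Sst: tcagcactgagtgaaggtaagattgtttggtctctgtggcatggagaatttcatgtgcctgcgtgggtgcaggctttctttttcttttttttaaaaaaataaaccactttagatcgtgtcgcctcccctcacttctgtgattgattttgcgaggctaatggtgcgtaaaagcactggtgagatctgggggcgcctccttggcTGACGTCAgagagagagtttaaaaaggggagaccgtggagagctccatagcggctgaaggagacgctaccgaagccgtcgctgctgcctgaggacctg
Tac1: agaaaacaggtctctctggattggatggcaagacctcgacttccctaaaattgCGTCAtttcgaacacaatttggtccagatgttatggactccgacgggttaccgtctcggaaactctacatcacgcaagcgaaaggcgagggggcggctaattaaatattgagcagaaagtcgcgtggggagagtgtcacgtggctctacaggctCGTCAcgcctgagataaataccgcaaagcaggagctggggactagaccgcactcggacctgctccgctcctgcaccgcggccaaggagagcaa
Adcyap1: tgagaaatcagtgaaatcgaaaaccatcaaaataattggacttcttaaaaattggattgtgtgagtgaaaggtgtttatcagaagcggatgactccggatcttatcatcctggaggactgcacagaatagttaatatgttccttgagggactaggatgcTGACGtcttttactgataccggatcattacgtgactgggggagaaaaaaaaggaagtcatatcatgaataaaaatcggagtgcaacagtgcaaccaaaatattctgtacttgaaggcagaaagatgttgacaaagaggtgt
Htr2a: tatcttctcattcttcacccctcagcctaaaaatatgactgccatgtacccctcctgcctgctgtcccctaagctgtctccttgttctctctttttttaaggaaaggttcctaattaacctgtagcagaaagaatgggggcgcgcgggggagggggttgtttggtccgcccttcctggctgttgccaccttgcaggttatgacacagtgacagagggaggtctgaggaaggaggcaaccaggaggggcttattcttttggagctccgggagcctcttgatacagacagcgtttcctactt
The full element occurs once in the Sst window, the shorter site on its own stands at 2 places in the Tac1 window and at 1 in the Adcyap1 window, and neither occurs in that of Htr2a. Promoter windows were found for 244 of the 316 genes below 0 and 60 of the 82 above 0. On either strand TGACG occurred in 19.3% of the 322 windows of genes below 0 and 17.98% of the 89 of genes above 0, against 28.5% of the 16014 windows of all tested genes and 20.8% of the 32851 windows in the table. The full element, which holds the shorter site on both strands, occurred in 1.55%, 1.12%, 2.79% and 1.79% of the same 4 sets. The shorter site was thus no commoner among the genes with an interaction than among all genes tested. A match describes letters in the window and says nothing of binding.

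Onecut3, Klhl1 and Ebf3, chosen after their values were seen, had low levels in the MDTH of high performers. Onecut3, a homeobox factor, held 0, 3.95 and 1.31 normalized counts in MDTH high and 80.4, 179 and 203 in MDTH low performers, against 1.34, 0 and 3.71 in PFC high and 2.62, 0 and 0 in PFC low performers. It reached the mean of 10 through MDTH low alone, so no test is given for it. Klhl1, a neuronal actin-binding protein, held 48.1, 11.8 and 13.1 in MDTH high and 708, 1165 and 1217 in MDTH low performers, against 135, 378 and 266 in PFC high and 193, 117 and 148 in PFC low performers (-6.27, limma adjusted p = 0.00315). The transcription factor Ebf3 was likewise low in MDTH high performers at 61.5, 18.6 and 43.3, against 885, 1382 and 1062 in MDTH low performers and at most 47.4 in any PFC library (-4.47, limma adjusted p = 0.00679). No groups overlapped in MDTH for any of the 3. Klhl1 and Ebf3 kept their calls with any 1 library left out.

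Some proteases of mast cell granules, again chosen after their values were seen, were present in the MDTH of low performers and nearly absent from the MDTH of high performers and from PFC. Cpa3, a carboxypeptidase, held 0, 2.63 and 0 normalized counts in MDTH high and 33.99, 168 and 70.6 in MDTH low performers, and at most 1.24 in any PFC library. Tpsb2, a tryptase, held 0, 1.32 and 1.31 in MDTH high and 29.1, 129 and 52.9 in MDTH low performers, and Cma1, a chymase, held 0, 0 and 0 in MDTH high and 18.2, 68.4 and 35.7 in MDTH low performers. All 3 were present in each MDTH low library and at or near 0 in the other 9 of the 12 libraries. Mcpt4, a further protease, held 0, 5.26 and 0 in MDTH high and 21.8, 68.1 and 39.04 in MDTH low performers, and 0 in every PFC library. These proteases reached the mean of 10 through MDTH low alone, so no test is given for them. Hdc and Kit, other genes of mast cells, did not show this difference. Hdc, which makes histamine, gave 0.55 (limma adjusted p = 0.875) with 50.1, 77.04 and 64.97 in MDTH high and 55.5, 93.03 and 141 in MDTH low performers. Kit, a receptor of mast cells and of some neurons, held 201, 213 and 388 in MDTH high and 180.1, 234 and 258 in MDTH low performers (-0.27, limma adjusted p = 0.837).

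Among the genes with an interaction above 0, Pacsin2, a membrane-bending protein of endocytosis (ENSMUSG00000016664, GRCm38 chromosome 15, 83375607 to 83464606, minus strand, protein coding), had the smallest p. It held 7092, 6877 and 7867 normalized counts in MDTH high and 4366, 3469.9 and 3415 in MDTH low performers, against 2782, 3111 and 2679.8 in PFC high and 3073, 2715 and 2922 in PFC low performers. The MDTH mean was 1.94-fold higher in high performers with no overlap, the PFC groups overlapped, and the interaction was 0.99 (SE 0.15, 95% interval 0.66 to 1.32, limma adjusted p = 0.0112). Xylt2, a xylosyltransferase that starts proteoglycan chains, held 6639, 6403 and 7749.9 in MDTH high and 3952, 2976 and 2605 in MDTH low performers (1.29, limma adjusted p = 0.0115). Both stayed past the threshold with any 1 library left out. Necab1, a neuronal calcium-binding protein, held 51872, 54421 and 57673 in MDTH high and 32718, 27008 and 21751 in MDTH low performers (1.22, limma adjusted p = 0.0156), and without MDTH low replicate 2 its adjusted p was 0.0502.

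Plcb4, a phospholipase C of thalamic neurons, gave 1.27 (SE 0.21, limma adjusted p = 0.0166), with 36219, 35149 and 47370.1 normalized counts in MDTH high and 20214, 14526 and 14694 in MDTH low performers. It no longer passed without MDTH low replicate 2 (adjusted p = 0.0525) or PFC low replicate 3 (adjusted p = 0.0503), nor with all 18 libraries in the limma fit (adjusted p = 0.142). Esyt2, a tether between the endoplasmic reticulum and the plasma membrane, gave 0.69 (limma adjusted p = 0.0207). Icmt, a methyltransferase of prenylated proteins, was higher in high performers in both tissues and more so in MDTH (0.82 in MDTH and 0.27 in PFC, interaction 0.55, limma adjusted p = 0.0196). Ttc17 differed in the cortex instead: MDTH held 4605, 5381 and 5279 in high and 6469, 4945 and 5812 in low performers, which overlapped, while PFC held 1780.1, 1763 and 1558 in high and 3829.8, 3942 and 3258 in low performers (0.94, limma adjusted p = 0.0183). Esyt2 missed the threshold without any 1 library other than MDTH high replicate 1, MDTH low replicate 1, PFC high replicate 1 and PFC low replicates 1 and 2 (adjusted p 0.0503 to 0.0679). Icmt missed it without MDTH high replicate 3, MDTH low replicate 2 or 3, PFC high replicate 2 or PFC low replicate 3 (adjusted p 0.0501 to 0.0653). Ttc17 missed it without MDTH low replicate 2 or 3 or PFC high replicate 3 (adjusted p 0.0511 to 0.0518).

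Markers of thalamic relay neurons leaned towards the MDTH of high performers, with a median difference of 0.80 in MDTH and -0.41 in PFC (log2). The lean was not particular to MDTH. In the third tissue of the series, labelled HPF, the list median was 0.96. There 1 member was higher and 1 lower, where 0.524% of all genes were higher and 0.927% lower. Of 22 members, 5 had an interaction above 0 that passed and none below 0, where 0.453% and 1.74% of all genes did. The list median was 1.19 against 0.02 over all genes. In MDTH alone 12 were higher and none lower in high performers, where 14% of all genes were higher and 13.6% lower. In PFC none was higher and 4 were lower, where 6.36% of all genes were higher and 5.29% lower. The summed level of the list was 509425, 588525 and 597997 normalized counts in MDTH high and 393716, 267048 and 275043 in MDTH low performers, against 33930 to 39300 in PFC high and 36895 to 39211 in PFC low performers. The groups did not overlap in MDTH. Between the MDTH groups the relay sums ran opposite to the habenular sums given above. Among the MDTH low libraries, replicate 2 had the lowest relay sum and replicate 3 the highest habenular sum. Whether the share of relay tissue in a sample or the level per cell differs was not tested.

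Prkcd, a protein kinase C of relay neurons, led the list with 56378, 71303 and 85715 normalized counts in MDTH high and 31847, 11873 and 16153 in MDTH low performers, against 215, 199 and 238 in PFC high and 266, 500.4 and 498 in PFC low performers (2.84, SE 0.47, limma adjusted p = 0.0166). The direction was opposite in the 2 tissues, though the PFC difference did not pass. In HPF, Prkcd was lower in high performers (-1.90, limma adjusted p = 0.0475 in a fit of all 18 libraries). Without MDTH low replicate 3 or PFC low replicate 3 the adjusted p of Prkcd was 0.0514 and 0.0509. Lef1, a factor of Wnt signalling, and Grid2ip, a receptor scaffold, had PFC differences that passed and MDTH differences that did not. Lef1 held 3474, 4542 and 5164 in MDTH high and 5466, 2894 and 3706 in MDTH low performers, against 93.5, 114 and 101 in PFC high and 276, 495 and 337 in PFC low performers (1.95, limma adjusted p = 0.0231). Adarb1, an RNA editing enzyme, and Plekhg1 had the reverse, with interactions of 1.31 and 2.15 (limma adjusted p = 0.0292 and 0.0386). Rora and Ramp3 were higher in MDTH high performers and their interactions of 1.42 and 1.72 did not pass (limma adjusted p = 0.0801 and 0.0643). Tcf7l2 and Slc17a6 gave 0.79 and 0.42, also short of the threshold. In MDTH, Tcf7l2 went the other way, with 29165, 23166 and 24746 normalized counts in high and 37512, 36967 and 33191 in low performers. Its PFC values were 114.5, 107.6 and 139.5 in high and 208.6, 426.8 and 280.6 in low performers. Lef1 missed the threshold without any 1 library other than MDTH high replicate 1, MDTH low replicate 1 and PFC low replicates 1 and 2 (adjusted p 0.0545 to 0.0672). Grid2ip missed it without any 1 library other than MDTH high replicate 1, MDTH low replicate 1, PFC high replicate 1 and PFC low replicate 1 (adjusted p 0.0517 to 0.0846). Plekhg1 missed it without any 1 library other than MDTH high replicate 1, MDTH low replicate 1 and PFC low replicates 1 and 2 (adjusted p 0.0717 to 0.112). Adarb1 missed it without any 1 library other than MDTH high replicate 1 and MDTH low replicate 1 (adjusted p 0.0562 to 0.0823).

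The count for relay markers was small and depended on single libraries. It was 0 without MDTH low replicate 3 or PFC low replicate 3, 1 without MDTH high replicate 2 or 3, MDTH low replicate 2 or PFC high replicate 2 or 3, 3 without PFC high replicate 1 or PFC low replicate 2, 7 without MDTH high replicate 1 and 11 without MDTH low replicate 1. With the random block of name numbers, 9 of the 22 passed. The list median stayed between 1.09 and 1.46 in the leave-one-out fits and was 0.74 with both MDTH low libraries of highest habenular level left out.

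Habenular markers lay on the other side of 0. The list median was -2.94. An interaction below 0 passed for 2 of 12 members and none above 0 did, where 1.74% and 0.453% of all genes did. In MDTH 8 of the 12 were lower in high performers, where 13.6% of all genes were lower, and in PFC none passed, where 11.7% of all genes did. Lmo3, a LIM-only cofactor, held 344, 236 and 286 normalized counts in MDTH high and 1423, 2219 and 2099 in MDTH low performers, against 5238, 5127 and 7015 in PFC high and 4869.9, 7168 and 4719.5 in PFC low performers (-2.78, SE 0.31, limma adjusted p = 0.00248). Nwd2 held 1097, 249.9 and 296 in MDTH high and 1886, 4972 and 13429.9 in MDTH low performers (-4.18, SE 0.93, limma adjusted p = 0.0443), and it did not pass without any 1 library other than MDTH high replicate 1 and MDTH low replicate 1 (adjusted p 0.0607 to 0.118). Both are also well expressed in PFC.

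Pou4f1, the factor that defines habenular neurons, held 10.4, 54.2 and 31.1 normalized counts in MDTH high and 169, 1335 and 3105 in MDTH low performers, and at most 15.7 in any PFC library. Its interaction of -6.52 had an SE of 1.62 and missed the threshold (limma adjusted p = 0.0651). Chrna3, a nicotinic receptor subunit, held 22.1, 49.99 and 47.1 in MDTH high and 119, 230.5 and 2502 in MDTH low performers (-3.35, limma adjusted p = 0.214). Tac2, a tachykinin precursor, held 7.88, 10.6 and 36.7 in MDTH high and 32.6, 225 and 1709 in MDTH low performers (-3.23, limma adjusted p = 0.36). Low replicate 3 held most of each, and low replicate 1 stood closest to the high performers for all 3. With both low replicates 2 and 3 left out, which leaves 1 MDTH low library, the list median was -1.55 and 0 members passed.

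Direct reversals between the tissues were few: 8 genes passed as higher in MDTH and lower in PFC, and 10 as lower in MDTH and higher in PFC. Adcyap1, the precursor of the neuropeptide PACAP (ENSMUSG00000024256, GRCm38 chromosome 17, 93199017 to 93206537, plus strand, protein coding), led those lower in MDTH in size among the 5 named here. It held 459.7, 221 and 304 normalized counts in MDTH high and 654, 1475 and 1290.0 in MDTH low performers, against 1349, 1355 and 1779.7 in PFC high and 886, 399.7 and 603 in PFC low performers. No groups overlapped within a tissue (in PFC this held for 30.7% of all genes tested). The interaction was -3.08 (SE 0.51, limma adjusted p = 0.0166), and it missed the threshold without MDTH low replicate 2 (0.0525), MDTH low replicate 3 (0.0514) or PFC low replicate 3 (0.0503), or with all 18 libraries in the fit (0.0613).

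Ndn, the imprinted gene necdin, held 8977, 6374 and 7468 normalized counts in MDTH high and 11244, 14808 and 13085 in MDTH low performers, against 10059, 9966 and 11641 in PFC high and 8058, 7597 and 7511 in PFC low performers (-1.23, SE 0.18, limma adjusted p = 0.00988). Ndn and Kbtbd11, a kelch-repeat protein (-0.99, limma adjusted p = 0.00849), kept their calls with any 1 library left out. Adcy7, an adenylyl cyclase, held 665, 712 and 601 in MDTH high and 1027, 1394 and 998 in MDTH low performers, against 578, 798 and 533 in PFC high and 412, 374 and 389 in PFC low performers (-1.45, limma adjusted p = 0.0166). Sema4f, a semaphorin, gave -0.85 (limma adjusted p = 0.0166). Without PFC low replicate 3, Adcy7 and Sema4f reached an adjusted p of 0.0503 (limma), and Sema4f also lost its call without MDTH low replicate 2 (0.0525).

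In the other direction, Gckr, a regulator of glucokinase, held 282, 308 and 476 normalized counts in MDTH high and 172, 119.6 and 93.2 in MDTH low performers, against 0.771, 1.32 and 0 in PFC high and 6.91, 6.74 and 4.24 in PFC low performers. The PFC values lie near 0, so its interaction of 3.57 (SE 0.59, limma adjusted p = 0.0166) rests on few reads there, and it missed the threshold with a pseudocount of 0.1 (0.0513) and without MDTH low replicate 2 or 3 (0.0557 and 0.0522). Capn3, a calpain protease, held 853, 848 and 593 in MDTH high and 423, 291 and 321 in MDTH low performers, against 109, 106 and 59.9 in PFC high and 188, 177 and 146 in PFC low performers (2.07, limma adjusted p = 0.02). Ppard, a nuclear receptor of fatty acids, gave 1.24, Plekhd1 gave 2.02, and Cacnb2, a calcium channel subunit, gave 0.62 (limma adjusted p = 0.0265, 0.0215 and 0.0276). In these 4 the groups did not overlap within either tissue, though Ppard and Cacnb2 came close to it in MDTH. Capn3 missed the threshold without MDTH high replicate 2 or MDTH low replicate 2 or 3 (adjusted p 0.0517 to 0.0657). Plekhd1 missed it without MDTH high replicate 2, MDTH low replicate 2 or 3 or PFC high replicate 3 (adjusted p 0.0531 to 0.0652). Ppard missed it without any 1 library other than MDTH high replicate 1, MDTH low replicate 1 and PFC low replicate 1 (adjusted p 0.0545 to 0.0787). Cacnb2 missed it without any 1 library other than MDTH high replicate 1, MDTH low replicate 1, PFC high replicate 1 and PFC low replicate 2 (adjusted p 0.0578 to 0.09).

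Gpr12, an orphan receptor that raises cAMP without an added ligand (ENSMUSG00000041468, a protein-coding gene at chr5:146582398-146585239 of GRCm38), did not pass. It held 2388, 3118 and 2993 normalized counts in MDTH high and 1917, 1325 and 1251 in MDTH low performers, against 619, 721 and 672 in PFC high and 757, 501 and 620.2 in PFC low performers. The groups were apart in MDTH and overlapped in PFC. The interaction was 0.82 on the log2 scale (SE 0.27, 95% interval 0.23 to 1.40, limma adjusted p = 0.154). It passed with the random block of name numbers (0.80, limma adjusted p = 0.0483) and without MDTH low replicate 1 (1.01, limma adjusted p = 0.0398). Over all 29 alternatives it ranged from 0.44 to 1.06, with limma adjusted p of 0.0281 to 0.956.

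Of 31 genes of cAMP signalling, 4 had an interaction below 0 that passed, where 1.74% of all genes did. None had one above 0, where 0.453% of all genes did, and the list median was 0.02. Pde1a, a phosphodiesterase that degrades cyclic nucleotides, held 533, 241 and 334 normalized counts in MDTH high and 1056, 1596 and 2296 in MDTH low performers, against 22996, 25117 and 22619 in PFC high and 21640.1, 23915 and 18754 in PFC low performers (-2.30, limma adjusted p = 0.0203). Prkar2a, which holds protein kinase A inactive, was lower in high performers in both tissues and more so in MDTH (-0.62, limma adjusted p = 0.035). Prkacb, a catalytic subunit, gave -0.75 and Adcy2, an adenylyl cyclase, -0.52 (limma adjusted p = 0.0384 and 0.0443). Gnas, Creb1 and Gpr3, a receptor related to Gpr12, gave -0.05, 0.09 and -0.46 and did not pass. Pde1a missed the threshold without MDTH low replicate 2, PFC high replicate 2 or 3 or PFC low replicate 3 (adjusted p 0.0511 to 0.065), and Prkar2a, Prkacb and Adcy2 without any 1 library other than MDTH high replicate 1 and MDTH low replicate 1, with adjusted p of at most 0.0868, 0.11 and 0.131 (limma). With 1 library left out between 0 and 6 of the list passed below 0, and 0 did without MDTH low replicate 2, PFC high replicate 2 or 3 or PFC low replicate 3.

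None of 21 glutamate and 14 GABA receptor genes passed (limma; 9 and 4 had an unadjusted p under 0.05), although 9 glutamate receptor genes were higher and 4 lower in MDTH high performers, and 5 GABA receptor genes higher and 0 lower. In PFC 1 glutamate and 2 GABA receptor genes were higher and none lower. The shares over all genes tested were 14% higher and 13.6% lower in MDTH, and 6.36% higher and 5.29% lower in PFC. An interaction passed for 2.2% of all genes. Gabra4, a GABA receptor subunit of thalamic relay cells, held 24906, 39552 and 33935 normalized counts in MDTH high and 15574, 8545 and 8399 in MDTH low performers, with an interaction of 1.24 (limma adjusted p = 0.0675). Gabra4 and the glutamate receptor Grm3 (-0.44, limma adjusted p = 0.0866) passed with the random block of name numbers (0.0400 and 0.0251). Of 23 pacemaker, calcium and potassium channel genes, 1 passed above 0 and 2 below, where 0.453% and 1.74% of all genes did. Without MDTH low replicate 1, 4 glutamate receptor, 3 GABA receptor and 7 channel genes passed above 0. Without MDTH high replicate 1, 1 glutamate receptor gene passed below 0, 1 GABA receptor gene passed above 0, and 2 channel genes passed above and 4 below 0. With any other single library left out no channel gene passed above 0 and 1 or 2 passed below. Kcnc4, a fast potassium channel, held 1098, 769.5 and 940.2 in MDTH high and 3680.3, 4376 and 3603 in MDTH low performers (-1.86, limma adjusted p = 0.00174) and kept its call with any 1 library left out, while Kcnk9, a leak channel, gave -0.96 (limma adjusted p = 0.0412). Sv2c, a synaptic vesicle protein, was the member of 21 vesicle release genes that passed (-3.35, limma adjusted p = 0.0257). Kcnq3, a potassium channel subunit, was the one above 0 (1.21, limma adjusted p = 0.0475). Kcnk9 missed the threshold without any 1 library other than MDTH high replicate 1 and PFC high replicate 2 (adjusted p 0.0531 to 0.128). Kcnq3 missed it without any 1 library other than MDTH high replicate 1 and MDTH low replicate 1 (adjusted p 0.06 to 0.139). Sv2c missed it without any 1 library other than MDTH high replicate 1, MDTH low replicate 1 and PFC low replicate 3 (adjusted p 0.0516 to 0.0823).

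**Figure D4:**
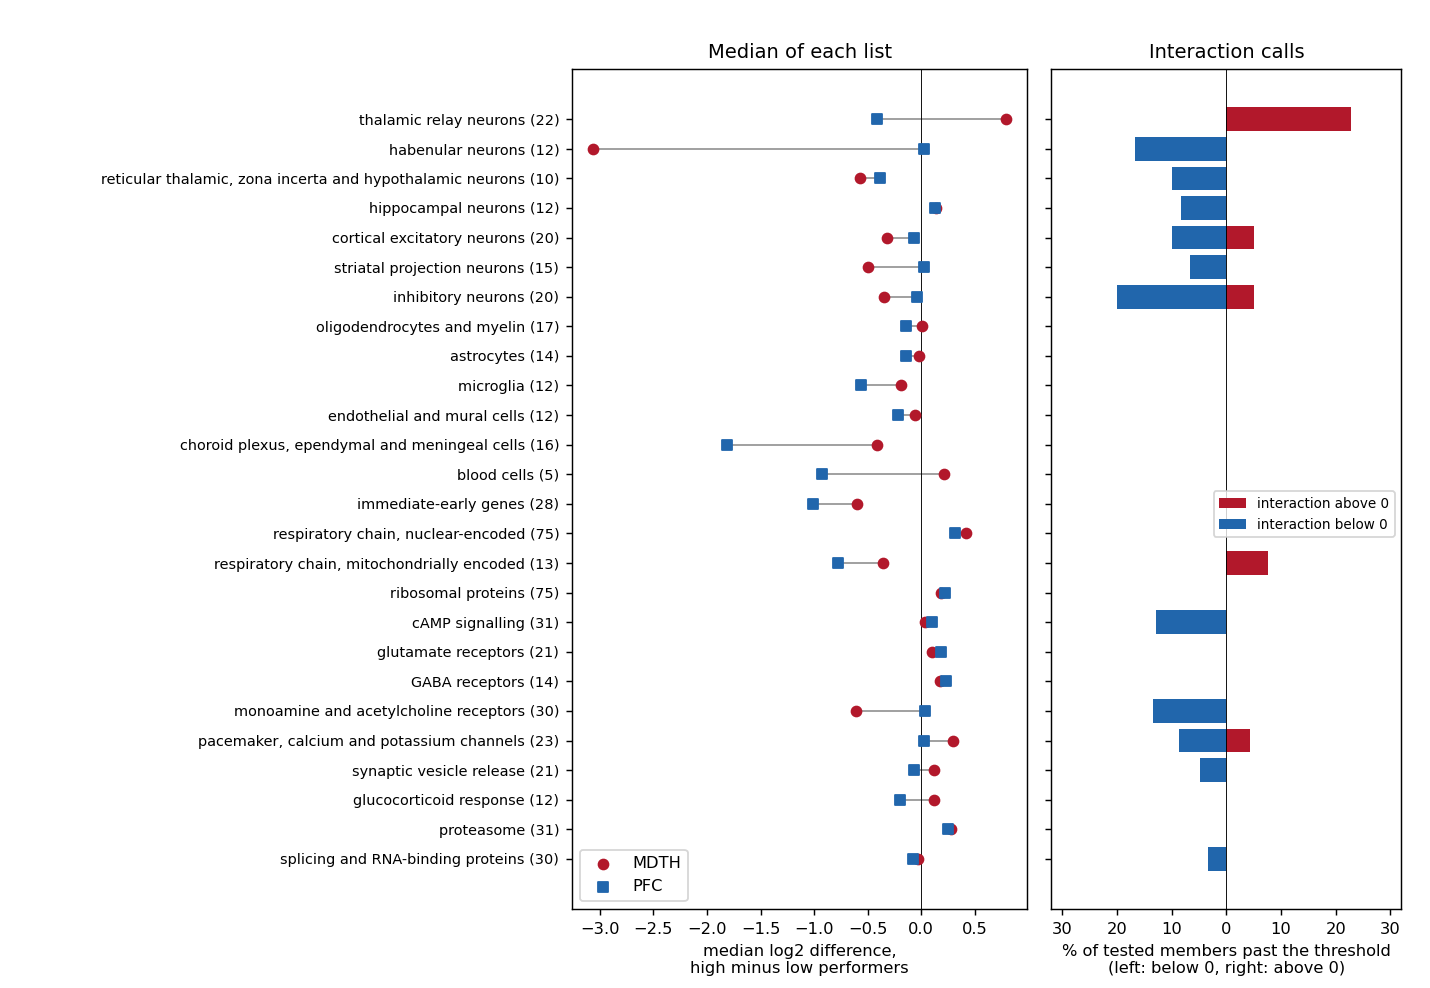
Left, median difference between high and low performers (log2) of the tested members of 26 gene lists in MDTH (circles) and PFC (squares), with the number of tested members in brackets; right, the percentage of members whose interaction passed, below 0 to the left and above 0 to the right. Thalamic relay and habenular markers lie far apart between the tissues, while the nuclear-encoded respiratory chain, ribosomal and proteasome lists lie close together and have no member that passed.

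None of the nuclear-encoded respiratory chain, proteasome or ribosomal protein genes listed had an interaction that passed in limma, where 2.2% of all genes did. In each of these lists more members were higher than lower in high performers in both tissues. Over all genes tested, 14% were higher and 13.6% lower in MDTH, and 6.36% were higher and 5.29% lower in PFC. The shares of ribosomal genes lower in high performers were close to these in both tissues. The respiratory chain list held 75 nuclear genes, of which 54 in MDTH and 41 in PFC were higher in high performers, none was lower in either, and 6 had an interaction with an unadjusted p under 0.05 (list median 0.09). The smallest interaction p of the list was that of Ndufa4, a respiratory chain protein, which held 10351, 12109 and 11270.4 normalized counts in MDTH high and 5646, 5066 and 4737 in MDTH low performers, against 9140.5, 10145 and 9191 in PFC high and 5790.5, 5757 and 5101 in PFC low performers (0.35, limma adjusted p = 0.207). Of 31 proteasome genes, 18 were higher and 2 lower in MDTH, 16 were higher and 2 lower in PFC, and 0 had an interaction with an unadjusted p under 0.05 (list median 0.03). Of 75 ribosomal protein genes, 24 were higher and 12 lower in MDTH, 19 were higher and 4 lower in PFC, and 4 had an interaction with an unadjusted p under 0.05 (list median -0.04). Rpl22l1, a ribosomal protein paralogue, held 2634, 2655 and 2295 in MDTH high and 868, 952 and 919.8 in MDTH low performers, against 2342, 2663 and 2396 in PFC high and 640.5, 606 and 661 in PFC low performers. Its interaction of -0.49 missed the threshold (limma adjusted p = 0.0814) and passed with the random block of name numbers (0.0343).

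Of 13 mitochondrially encoded transcripts, 2 were higher and 7 lower in MDTH high performers, where 14% of all genes were higher and 13.6% lower. In PFC high performers 1 was higher and 8 lower, where 6.36% of all genes were higher and 5.29% lower. All genes whose symbol begins with mt- together took 5.90% ± 0.444 of all normalized counts in MDTH high and 7.72% ± 1.06 in MDTH low performers, against 5.43% ± 0.172 in PFC high and 8.47% ± 0.279 in PFC low performers (SD, n = 3 each). The difference of differences was 1.24 percentage points (two-sided exact permutation p = 0.43 over 400 assignments). High and low were shuffled within each tissue without the pairing, which also moved the fall shared by both tissues (-1.81 in MDTH and -3.05 in PFC). That widens the spread of the shuffled differences, so this p cannot tell whether the tissues differ. Of the 13, mt-Atp8, a subunit of the ATP synthase, had an interaction that passed, where 2.2% of all genes did. It was lower in high performers in both tissues and less so in MDTH (-0.31 in MDTH and -0.91 in PFC, interaction 0.60, limma adjusted p = 0.0209). The reading frame of mt-Atp8 overlaps that of mt-Atp6, whose interaction was -0.07 (limma adjusted p = 0.98), and how reads were divided between the 2 genes was not tested. The interaction of mt-Atp8 missed the threshold without any 1 library other than MDTH high replicate 1, MDTH low replicate 1, PFC high replicate 1 and PFC low replicates 1 and 2 (adjusted p 0.0502 to 0.0702).

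Of 28 immediate-early genes, which neuronal activity induces, 5 were lower and 2 higher in MDTH high performers, where 13.6% of all genes were lower. In PFC high performers 7 were lower and none higher, where 5.29% of all genes were lower. No member had an interaction that passed in limma, with 6 at an unadjusted p under 0.05 (list median 0.43). Fos held 525, 756 and 849.5 normalized counts in MDTH high and 4351, 2572 and 1049.6 in MDTH low performers, against 665, 645 and 752 in PFC high and 6786, 5106 and 1586 in PFC low performers (0.76, SE 0.77, limma adjusted p = 0.744). Every high library lay under every low library in both tissues, and the low libraries spread over several fold. Klf4, the member with the smallest interaction p, gave 0.98 (limma adjusted p = 0.166).

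No interaction passed in limma in the lists of oligodendrocytes and myelin (0 of 17 members at an unadjusted p under 0.05), astrocytes (1 of 14), microglia (2 of 12), endothelial and mural cells (1 of 12), choroid plexus, ependymal and meningeal cells (0 of 16), blood cells (0 of 5) or glucocorticoid response (2 of 12). For choroid plexus markers the spread within PFC was wide: Clic6, an intracellular channel protein, held 2217, 103 and 96.4 normalized counts in PFC high and 359, 1622 and 1719 in PFC low performers, and its interaction of 2.38 had an SE of 1.43. Myelin genes moved with single PFC libraries too, as Mag, a myelin protein, held 4202, 5982 and 9120.2 in PFC high and 4714, 18335 and 7221 in PFC low performers (0.49, limma adjusted p = 0.786). Nr3c1, the glucocorticoid receptor, gave 0.63 (limma adjusted p = 0.0539) and passed with the random block of name numbers (0.0193).

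Members of 4 other lists passed, at most 3 to a list, where 2.2% of all genes tested did. Otx1 and Rorb, factors of cortical layers, and Hs3st4, a sulfotransferase, gave -1.96, 1.27 and -2.69 (limma adjusted p = 0.024, 0.043 and 0.0478). Rorb is also a thalamic gene and held 8296, 7846 and 5842 normalized counts in MDTH high and 3925, 2755 and 2308 in MDTH low performers. Esr1, an oestrogen receptor of the reticular and hypothalamic list, held 112, 60.8 and 49.7 in MDTH high and 358, 345 and 362 in MDTH low performers (-2.11, limma adjusted p = 0.0321). Grik4, a kainate receptor subunit of the hippocampal list, gave -1.44, and Nova1, a neuronal splicing factor, -1.03 (limma adjusted p = 0.0212 and 0.0382). Rorb missed the threshold without any 1 library other than MDTH high replicate 3 and MDTH low replicate 1 (adjusted p 0.0549 to 0.126). Hs3st4 missed it without any 1 library other than MDTH high replicate 1 and MDTH low replicate 1 (adjusted p 0.066 to 0.14). Otx1 missed it without any 1 library other than MDTH high replicates 1 and 3, MDTH low replicate 1 and PFC low replicate 2 (adjusted p 0.0507 to 0.0737). Esr1 missed it without any 1 library other than MDTH high replicate 1, MDTH low replicate 1, PFC high replicate 1 and PFC low replicate 2 (adjusted p 0.0578 to 0.09). Grik4 missed it without MDTH high replicate 3, MDTH low replicate 2 or 3, PFC high replicate 2 or 3 or PFC low replicate 3 (adjusted p 0.0509 to 0.0651). Nova1 missed it without any 1 library other than MDTH high replicate 1, MDTH low replicate 1 and PFC high replicate 3 (adjusted p 0.0515 to 0.106).

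The tissue labelled HPF, left out of the fit, gives values beside these. Of the 316 genes with an interaction below 0, 10 were higher and 6 lower in HPF high than in HPF low performers in a limma fit of all 18 libraries, and the median difference was 0.02. Of the 82 above 0, 3 were higher and 4 lower there, and the median was 0.00. The share that passed in HPF among all genes tested was 1.45%, with 0.524% higher and 0.927% lower. The HPF high performers carry the same 3 name numbers as those of MDTH and PFC.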

How the data were processed

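Per the labels' protocols, libraries of polyadenylated RNA were stranded and came from a TruSeq kit. The deposited values are a signal in normalized counts per gene, made by the authors. The submitters' processing notes name STAR, Salmon and DESeq2, and versions, genome build, annotation and the use of strand are not given in the sources used here. All 18 sample columns were matched to labels by name.

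The values were taken as log2(value + 1), so fold changes of low genes are understated. Genes averaging 10 or more in the 12 MDTH and PFC libraries were fitted with limma 3.58.1 in R 4.3.3 as 4 group means with a trended prior, and the p-values of the interaction were adjusted by the Benjamini-Hochberg method over 18115 genes with a threshold of 0.05. No count model was used, since the values are not raw counts. Totals of 53283250 to 59634490 normalized counts stand for an estimated 41156443 to 48840131 reads per library, which bear on the counting precision. No label says that replicates are separate animals. Libraries of the same MDTH or PFC group shared the state of 41.5% to 77.4% of the 106 genes either on or off within every tissue, against 84.9% to 95.3% for libraries with the same name number in different tissues.

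The replicate numbers in the titles only count libraries within a group. The numbers inside the library names were checked for pairing. Deviations from the group means correlated at 0.49, 0.51, 0.47 and 0.35 for the numbers 44, 88, 165 and 130 shared by MDTH and PFC. Libraries sharing a number were treated as paired only in the alternative fits with a replicate block. The main fit held no block, so its SE, intervals and p-values do not account for the pairing. The pairing rests on the names and this check, and the labels do not call the number an animal.

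Genes named were Gpr12, up to 10 of smallest p in each direction (predicted genes left out), up to 5 in each class of opposite direction and 2 of smallest p per list, and any other was picked later and is marked so, or belongs to a list described by its members. The members and lists were chosen with earlier results of these data known. Gene coordinates are from GENCODE M21 on GRCm38, which held 99.2% of the gene IDs, and promoter sequences are from RefSeq on GRCm38.p6. The fit was tested on simulated data. Alternatives were other pseudocounts, filters, scalings and priors, all 18 libraries, replicate blocks and each library left out, with 5 more added after seeing the data.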

Additional observations from a re-analysis of the deposited data

Results flagged for a closer look

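The difference between high and low performers differed between MDTH and PFC by a test of the difference itself for 398 genes, and each gene below is listed for that reason (limma interaction, log2, adjusted p below 0.05). No explanation was weighed. Name style and performance cannot be told apart within a tissue.

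Among the genes with smallest p below 0, the interaction was -4.87 for Htr2a, -3.96 for Nos1, -2.60 for Atp2b4, -3.85 for Htr1a, -3.46 for Asic4, -4.59 for Sstr2, -3.07 for Cygb, -3.56 for Lancl3, -3.08 for BC030500 and -4.79 for Reln. Among those with smallest p above 0, it was 0.99 for Pacsin2, 1.29 for Xylt2, 1.22 for Necab1, 1.27 for Plcb4, 3.57 for Gckr, 2.84 for Prkcd, 0.94 for Ttc17, 0.55 for Icmt, 2.07 for Capn3 and 0.69 for Esyt2.

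Among genes that passed in opposite directions in the tissues, it was 2.02 for Plekhd1, 1.24 for Ppard, 0.62 for Cacnb2, -0.99 for Kbtbd11, -1.23 for Ndn, -0.85 for Sema4f, -3.08 for Adcyap1 and -1.45 for Adcy7. For members of the gene lists it was 1.95 for Lef1, -2.78 for Lmo3, -4.18 for Nwd2, -2.11 for Esr1, -1.44 for Grik4, -1.96 for Otx1, 1.27 for Rorb, -4.17 for Tac1, 0.60 for mt-Atp8, -2.30 for Pde1a, -0.62 for Prkar2a, -1.86 for Kcnc4, -0.96 for Kcnk9, -3.35 for Sv2c and -1.03 for Nova1.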

How the results depend on the processing

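The 398 genes became 622 with all 18 libraries, 200 without a trended prior, 817 and 0 with the shared name number as a random and a fixed replicate block (the fixed one leaves 2 residual degrees of freedom), and 85 to 830 with 1 library left out. Alternatives added after seeing the data gave 1160 and 12 with a random and a fixed replicate block of 5 pairs, 14 without MDTH low replicates 2 and 3, 0 without the 3 PFC libraries richest in choroid plexus transcripts, and 36 without both low libraries that have no partner. These last fits use fewer samples or residual degrees of freedom, and the cause was not tested otherwise. Other pseudocounts, filters and scalings, and blocking on the title number, gave 315 to 455. The MDTH count of 5007 ranged over 3291 to 5508 with 1 library left out and was 947 without MDTH low replicates 2 and 3, and the PFC count of 2111 ranged over 1065 to 2010 and was 329 without the 3 PFC libraries.

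Of the 43 named genes that passed, 0 reversed in any of 29 alternatives and 17 passed in every leave-one-out fit. All 43 passed with the random block of name numbers, and 9 without MDTH low replicates 2 and 3, with 1 library in that group. The Gpr12 interaction of 0.82 was 0.80 with the random block of name numbers and 0.84 with that of 5 pairs, both past the threshold, and 0.67 to 1.01 with 1 library left out, and was lowest at 0.44 (adjusted p = 0.956) without MDTH low replicates 2 and 3, which leaves that group 1 library. Mag and Pdgfra, which did not pass, reversed in sign with the name number fixed (-0.32 and -0.15), with 5 pairs fixed (-0.053 and -0.057), without the 3 PFC libraries (-0.64 and -0.32) and without the unpartnered libraries (-0.053 and -0.057). With 1 library left out Mag ranged from -0.059 to 0.92 and Pdgfra from -0.087 to 0.38, below 0 without PFC low replicate 2. The difference in mitochondrial share was 0.634 to 1.64 percentage points with 1 library left out.

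Each group holds 3 libraries, so small interactions are not detectable at this spread, whatever the depth.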

Other observations

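Genes that were either on or off within every tissue were used to compare libraries without regard to performance. Over 106 such genes, the 11 pairs of libraries with the same name number in different tissues had the same state at 84.9% to 95.3%. MDTH low replicate 3 and PFC low replicate 3 shared 95.3%, although their names carry the numbers 6 and 65. The other 96 pairs across tissues shared 36.8% to 78.3%, among them MDTH low replicate 2 and PFC low replicate 2 at 67.0%. Of these genes 98 were tested for the interaction and 0 passed with limma (2 at an unadjusted p under 0.05), where 2.2% of all genes passed. As a difference between high and low performers, 16 of them passed in MDTH or PFC. Of all genes tested, 27.6% passed in MDTH and 11.7% in PFC.

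Gm10108, a processed pseudogene chosen after its values were seen, was at 0 in all MDTH libraries and in all PFC high libraries and held 15.5, 56.4 and 51.9 normalized counts in PFC low performers. It reached the mean of 10 through PFC low alone, so no test is given for it. Nod2, a sensor of bacterial cell walls, held 286, 195 and 216 in MDTH high and 145, 63.01 and 78.00 in MDTH low performers, against 5.33, 3.71 and 9.84 in PFC high and 16.9, 28.5 and 15.9 in PFC low performers (2.95, limma adjusted p = 0.0311). Nod2, also chosen after its values were seen, missed the threshold without any 1 library other than MDTH high replicate 1, MDTH low replicate 1, PFC high replicate 3 and PFC low replicate 1 (adjusted p 0.0629 to 0.0945).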
